A study of Mus musculus with 4 samples.

Results

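Genes of fatty acid uptake and of fat cells were followed through a mouse model of traumatic heterotopic ossification (HO), the growth of bone outside the skeleton. The 10 members were taken by symbol, Fabp4, Cd36, Lpl, Angptl4, Gpihbp1, Pparg, Plin1, Adipoq, Cidec and Scd1, and all 10 were present among the 19465 genes listed in all 4 samples. Single-cell RNA-seq covered the tenotomy site of Hoxa11CreER;ROSA-LSL-TdTomato;Hif1a fl/fl mice, given tamoxifen at 75 mg/kg for 5 days and, after a washout, a burn/tenotomy (BT) injury, with cells taken at day 7. The first library pooled replicates 1 & 2 and the other held replicate 3. Both libraries carried the same alleles and tamoxifen, so neither is a control for the Hif1a deletion, and littermates lacking Cre are not part of the comparison. Cre is driven by Hoxa11, a limb patterning gene of the mesenchyme, so the deletion was aimed at mesenchymal cells and not at vessels or macrophages. In a difference between mesenchyme and another gate, cell type and deletion therefore cannot be told apart. Hif1a read 462 and 364 CPM (UMIs scaled to a common total per gate and library) in gated mesenchyme, but a 3' tag outside the deleted exon does not check the deletion. Visium sections A1 and B1 came from wild-type C57BL/6 male mice aged 10 weeks, 7 days after BT, and the labels do not say whether they came from separate mice. Each kind of sample therefore has n = 2, and a p-value measures only the spread between these samples.

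The cell libraries held 2303 and 1266 barcodes, of which 1276 and 795 were kept, with medians of 13144 and 17213 UMIs. The libraries shared 1 barcode. The sections held 3555 and 3195 tissue spots with medians of 454 and 516 UMIs, so a gene read well in cells can be near the limit of detection in spots. Throughout, values of cells are given for the library of replicates 1 & 2 first and replicate 3 second, and values of sections for A1 first and B1 second. Cells were gated by 3 or more markers of a class: 91 and 49 endothelial cells, 82 and 44 pericytes (with vascular smooth muscle), 374 and 285 mesenchymal cells, and 229 and 127 macrophages. The median cell of each of these gates carried 8 or 9 of its 10 markers in both libraries. No member was a marker of any gate, and no cell of either library entered an adipocyte gate. The gate's margin left 35 and 26 cells carrying markers of several classes ungated, among 214 and 139 ungated cells in all.

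Fat reaches a tissue as triglyceride in lipoproteins. Lipoprotein lipase (Lpl) is secreted by parenchymal and stromal cells, carried across the capillary wall and held on its inner face by the anchor Gpihbp1, and switched off by Angptl4. The released fatty acids are taken up with the help of the scavenger receptor Cd36 and moved inside the cell by the carrier Fabp4. Pparg is the nuclear receptor that drives adipogenesis and activates Fabp4, Cd36 and Lpl. Adipoq (adiponectin), Plin1 and Cidec (lipid droplet coat proteins) define mature fat cells, and Scd1 introduces a double bond into newly made fatty acids. Fabp4 is known from fat cells, macrophages and the endothelium of small vessels alike.

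In GRCm38 the members lie apart, each on a chromosome of its own except Pparg and Cidec. Fabp4 is at chr3:10204342-10208616, Cd36 at chr5:17781690-17888959, Lpl at chr8:68880555-68906932, Angptl4 at chr17:33774900-33781575 and Gpihbp1 at chr15:75596630-75598213. Pparg (chr6:115360879-115490404) and Cidec (chr6:113424634-113435760) share chromosome 6. Plin1 is at chr7:79721164-79732904, Adipoq at chr16:23146536-23157968 and Scd1 at chr19:44394450-44407709.

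RefSeq (GRCm38.p6) promoter entries were matched for 5 of the 10 members: Cd36, Pparg, Plin1, Adipoq and Cidec. The 250 bases before the transcript start are shown for Cd36, which was high in endothelial cells, and for Adipoq and Plin1, which were nearly absent from the cells and present in the sections. Capitals mark matches on either strand to AGGTCA, the half-site of nuclear receptors such as Pparg, and to CCAAT. The Cd36 and Plin1 starts lie inside the spans of the annotated genes.
Cd36, chr5:17835897-17836146, minus strand: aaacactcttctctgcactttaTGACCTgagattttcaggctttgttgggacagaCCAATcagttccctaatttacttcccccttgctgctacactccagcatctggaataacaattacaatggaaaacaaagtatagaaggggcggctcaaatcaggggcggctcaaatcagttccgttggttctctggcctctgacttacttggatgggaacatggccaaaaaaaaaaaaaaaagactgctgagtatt
Adipoq, chr16:23146286-23146535, plus strand: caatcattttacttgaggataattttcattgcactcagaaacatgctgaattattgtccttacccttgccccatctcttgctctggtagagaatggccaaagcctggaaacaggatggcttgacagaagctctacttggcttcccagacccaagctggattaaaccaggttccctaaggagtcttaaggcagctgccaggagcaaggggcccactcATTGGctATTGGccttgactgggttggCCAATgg
Plin1, chr7:79732777-79733026, minus strand: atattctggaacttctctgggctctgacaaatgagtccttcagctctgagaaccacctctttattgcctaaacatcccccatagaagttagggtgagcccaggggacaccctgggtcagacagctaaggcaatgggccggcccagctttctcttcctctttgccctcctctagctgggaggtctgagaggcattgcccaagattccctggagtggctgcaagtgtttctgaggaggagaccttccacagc
Cd36 carried 1 AGGTCA match and 1 CCAAT, Adipoq 3 CCAAT and no AGGTCA, and Plin1 neither. Among 32851 promoter windows of this length, 14% held AGGTCA and 33.8% held CCAAT on either strand, so these matches describe the letters only.

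The first question was which cells at the injury site carried the uptake machinery. Counts were summed per library and gate, and each gate was set against the mean, on the log scale, of the other 3 by edgeR's quasi-likelihood test with Benjamini-Hochberg adjustment over 12303 genes. All adjusted p-values below come from this test unless another tool is named. The low-count filter was passed by 7 of the 10 members, all but Plin1, Adipoq and Cidec. Endothelial cells were higher in Fabp4, Cd36, Gpihbp1 and Pparg and lower in Lpl and Scd1 (6 members called, where 17.0% of all genes tested were called higher and 15.9% lower). Pericytes were higher in Fabp4, Cd36, Lpl, Angptl4 and Pparg, mesenchyme in Angptl4 and Scd1, and macrophages in Cd36.

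**Figure D1:**
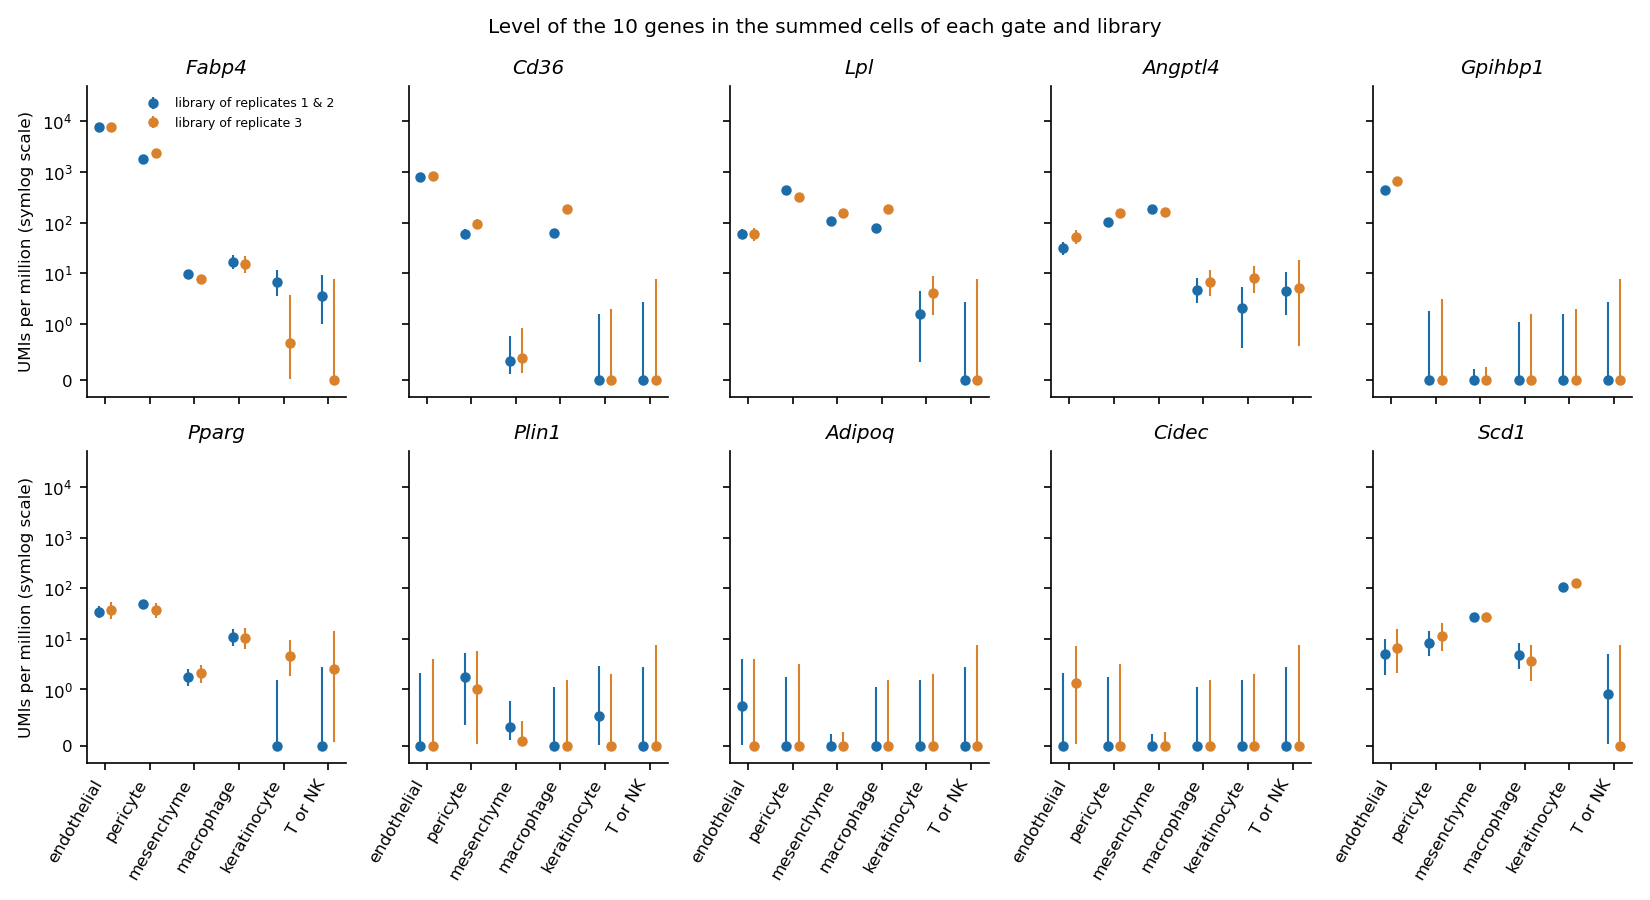
Levels of the 10 genes in CPM (y axis, symlog scale) for the summed cells of 6 gates (x axis), with a point for each library and bars for the exact Poisson 95% interval. Fabp4 stood at 7840 and 7599 in endothelial cells and 1823 and 2365 in pericytes against 17.0 or less in mesenchyme and macrophages, and Gpihbp1 was read in endothelial cells alone among these gates.

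Fabp4, the intracellular carrier, made up 7840 CPM of endothelial UMIs (95% interval 7695 to 7987) and 7599 (7404 to 7798). The same gene read 1823 and 2365 CPM in pericytes, 17.0 and 15.1 in macrophages, and 9.59 and 7.73 in mesenchyme. The endothelial level lay above every other gate in both libraries, and the intervals of the libraries overlapped. Against the other 3 gates the log2 difference was 6.66 (SE 0.20, adjusted p = 9.87e-12). Against pericytes alone it was 1.85 (SE 0.25, adjusted p = 4.42e-05), or 3.59-fold. At its own depth 78.0% and 79.6% of endothelial cells carried a Fabp4 UMI. After thinning to 5000 UMIs the share was 74.7% and 82.9% of the cells at least that deep. The 12 and 14 endothelial cells under 5000 UMIs were left out, as were such cells from every thinned share below. For comparison, 4.17% and 1.92% of keratinocytes and 2.82% and 0% of T or NK cells carried a Fabp4 UMI at own depth. The part of free RNA in these shares was not tested.

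The endothelial level of Fabp4 was uneven from cell to cell. Per cell it ranged from 0 to 58028 CPM with a median of 3481 in the library of replicates 1 & 2, and from 0 to 71208 with a median of 6590 in that of replicate 3. The 3 richest cells held 36.3% and 44.7% of all endothelial Fabp4 UMIs. Without them the level was 5290 and 4760 CPM, still above pericytes in both libraries.

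Cd36, the fatty acid receptor, followed the same gate. It read 807 and 820 CPM in endothelial cells, 60.5 and 96.2 in pericytes, 62.4 and 187 in macrophages, and 0.340 and 0.398 in mesenchyme. Endothelial cells exceeded the other 3 gates by 5.60 on the log2 scale (SE 0.24, adjusted p = 2.09e-09) and pericytes by 10.8-fold. Every endothelial cell with Cd36 also carried Fabp4 in the library of replicates 1 & 2 (58 of 58), as did 35 of 36 in that of replicate 3. Of all endothelial cells, 71 of 91 and 39 of 49 carried Fabp4.

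Gpihbp1, the anchor of lipoprotein lipase, was read from 641 and 511 UMIs in endothelial cells, or 450 and 675 CPM, and from 0 UMIs in pericytes, mesenchyme and macrophages of both libraries. A count of 0 allows up to 1.80 and 3.14 CPM in pericytes. Endothelial cells were thus at least 250-fold and 215-fold higher than pericytes, 2204-fold and 2822-fold higher than mesenchyme, and 406-fold and 431-fold higher than macrophages (adjusted p = 4.36e-10 for the endothelial contrast). These bounds rest on the limit of 3 counts in each library.

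The lipase itself showed another order. Lpl read 435 and 327 CPM in pericytes, 106 and 157 in mesenchyme, 77.9 and 185 in macrophages, and 59.7 and 59.4 in endothelial cells. Endothelial cells, taken as 1 gate, were lowest of the 4 gates in both libraries, by 1.80 on the log2 scale (SE 0.29, adjusted p = 0.000293) against the other 3. Their Lpl was uneven: 3 cells held 55.3% and 55.6% of its UMIs, and most lay in the capillary cells described below. Endothelial Lpl was 6.58-fold below that of pericytes, the largest of the 3 gaps to another gate. Mesenchyme and macrophages, neighbours in this order, did not differ beyond their spread (log2 0.06, SE 0.28, adjusted p = 0.881). Against all other gated classes, which add keratinocytes (1.57 and 4.01 CPM) and T or NK cells (0 UMIs), endothelial Lpl was not lower (1.84, adjusted p = 0.0519).

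Pparg, the nuclear receptor, was low throughout and read best in the 2 vascular gates. It stood at 47.9 and 37.6 CPM in pericytes, 34.4 and 37.0 in endothelial cells, 10.7 and 10.4 in macrophages, and 1.77 and 2.07 in mesenchyme. Endothelial cells exceeded the other 3 gates by 1.69 (SE 0.34, adjusted p = 0.00128) and macrophages by 1.47 (adjusted p = 0.0117). The endothelial and pericyte levels did not differ beyond their spread (log2 −0.32, SE 0.38, adjusted p = 0.595). Of the remaining members, Angptl4 read 31.6 and 52.8 CPM in endothelial cells and was not called against the other 3 gates (−0.50, SE 0.26, adjusted p = 0.161), but was called lower without the 3 cells of each sum with the most member UMIs (−1.42, adjusted p = 0.00205). Scd1 rested on few UMIs there, at 4.92 and 6.60 CPM, and its lower call (−1.09, SE 0.36, adjusted p = 0.0306) was lost under DESeq2 (adjusted p = 0.081) and under plain totals (adjusted p = 0.0758).

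Within the endothelium, the uptake genes were concentrated in cells gated as capillary (23 and 20 cells by at least 2 capillary markers) against venous cells (35 and 16). Of the members, 4 were called higher and 0 lower in capillary cells, where 0.790% of 9746 genes tested were called higher. Fabp4 read 20965 and 18065 CPM in capillary cells and 5999 and 4846 in venous cells, a log2 difference of 1.86 (SE 0.24, adjusted p = 0.000453). Capillary cells lay above venous cells in both libraries also without the 3 richest cells of each sum, at 11003 and 10209 against 4660 and 3338.

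Gpihbp1 read 1317 and 1784 CPM in capillary and 202 and 244 in venous cells (log2 2.79, SE 0.22, adjusted p = 0.000179). Levels in the capillary gate were higher in both libraries, but DESeq2 did not call the gene (2.83, adjusted p = 0.934). Lpl read 261 and 212 CPM against 8.09 and 0, where the venous values are 6 and 0 UMIs (log2 5.40, SE 1.06, adjusted p = 0.0121). Of the 85 and 45 endothelial Lpl UMIs, 74 and 45 lay in capillary cells.

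Cd36 read 2170 and 2190 CPM against 549 and 357 and was not called (2.21, SE 0.57, adjusted p = 0.0681). It was called without the 3 cells of each sum with the most member UMIs (2.41, adjusted p = 0.00805). Pparg read 98.6 and 51.9 CPM in capillary and 14.8 and 34.5 in venous cells (1.82, adjusted p = 0.0853). Capillary Angptl4 (66.9 and 118 CPM against 28.3 and 28.8, adjusted p = 0.0245) came from 3 cells in each library, and without the 3 cells of each sum with the most member UMIs its difference turned to −3.03 (adjusted p = 0.166).

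The other endothelial sub-gates were too small to fit. In 6 and 3 arterial cells Fabp4 stood at 3343 and 2365 CPM. In 10 and 3 lymphatic cells Fabp4 stood at 50.5 and 0 CPM and Cd36 at 0 in both libraries, while Gpihbp1 (57.7 and 48.8) and Pparg (50.5 and 48.8) were still read. These differences among small sub-gates carry no test.

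Pericytes, the contractile cells wrapped around capillaries, carried the second highest Fabp4 and the highest Lpl of the 4 gates. In them 5 members were called higher and 0 lower, against 17.7% of all genes called higher. Fabp4 at 1823 and 2365 CPM exceeded the other 3 gates by 4.20 (SE 0.19, adjusted p = 6.09e-10). Lpl exceeded them by 1.83 (SE 0.22, adjusted p = 2.81e-05), and Pparg by 2.12 (SE 0.31, adjusted p = 1.00e-04). Lpl was also higher than in mesenchyme (log2 1.35, adjusted p = 0.00194) and in macrophages (1.41, adjusted p = 0.00121). Pparg was higher than in mesenchyme by 18.9-fold and than in macrophages by 3.47-fold (adjusted p = 1.42e-06 and 0.00186).

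Fabp4 was spread over the pericytes more evenly than over the endothelium. The median pericyte stood at 867 and 1829 CPM and the highest at 10532 and 18491, and the 3 richest cells held 16.3% and 28.8% of its UMIs, without which the level was 1596 and 1804. Thinned to 5000 UMIs, 70% and 78.0% of pericytes carried a Fabp4 UMI, 70% and 68.3% an Lpl UMI, and 11.2% and 19.5% a Pparg UMI. Pericytes with a Pparg UMI carried Fabp4 in 30 of 30 and 21 of 23 cells, against 64 of 82 and 34 of 44 pericytes in all. The pericytes with Fabp4 had a median of 21182 and 20598.5 UMIs and those without had 11784.5 and 23024, so the order of the depths differed between the libraries.

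Endothelial genes were also read in the pericyte gate: Flt1, a vascular endothelial growth factor receptor, stood at 156 and 140 CPM there against 592 and 659 in endothelial cells. Endothelial Fabp4 came with 1 Gpihbp1 UMI for every 17.4 and 11.3 Fabp4 UMIs. Pericytes held 3043 and 2262 Fabp4 UMIs and 0 Gpihbp1 UMIs in both libraries. None of the 64 and 34 pericytes with Fabp4 carried Gpihbp1, and pericytes held 30.1 and 24.6 Fabp4 UMIs for each Cd36 UMI against 9.72 and 9.27 in endothelial cells. The part of endothelial RNA in the pericyte levels, that of Fabp4 included, was not tested.

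Cd36 was the least secure of the pericyte members. Its 60.5 and 96.2 CPM lay above the log mean of the other 3 gates (1.02, SE 0.30, adjusted p = 0.0221), which includes mesenchyme near 0, and the call was lost without the library as a block (1.01, adjusted p = 0.0855). Against macrophages alone, pericyte Cd36 was lower (−0.82, SE 0.31, adjusted p = 0.0435).

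Among the mural cells, pericytes proper (54 and 32 cells) read 2438 and 3155 CPM of Fabp4 and vascular smooth muscle (15 and 6 cells) 350 and 59.3. Lpl read 558 and 391 CPM against 155 and 178, Angptl4 138 and 195 against 0 and 33.9, and Pparg 64.4 and 43.6 against 21.7 and 16.9. All 4 genes were higher in pericytes proper in both libraries, but the 6 smooth muscle cells of replicate 3 were too few for a fit, so no test was made.

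**Figure D2:**
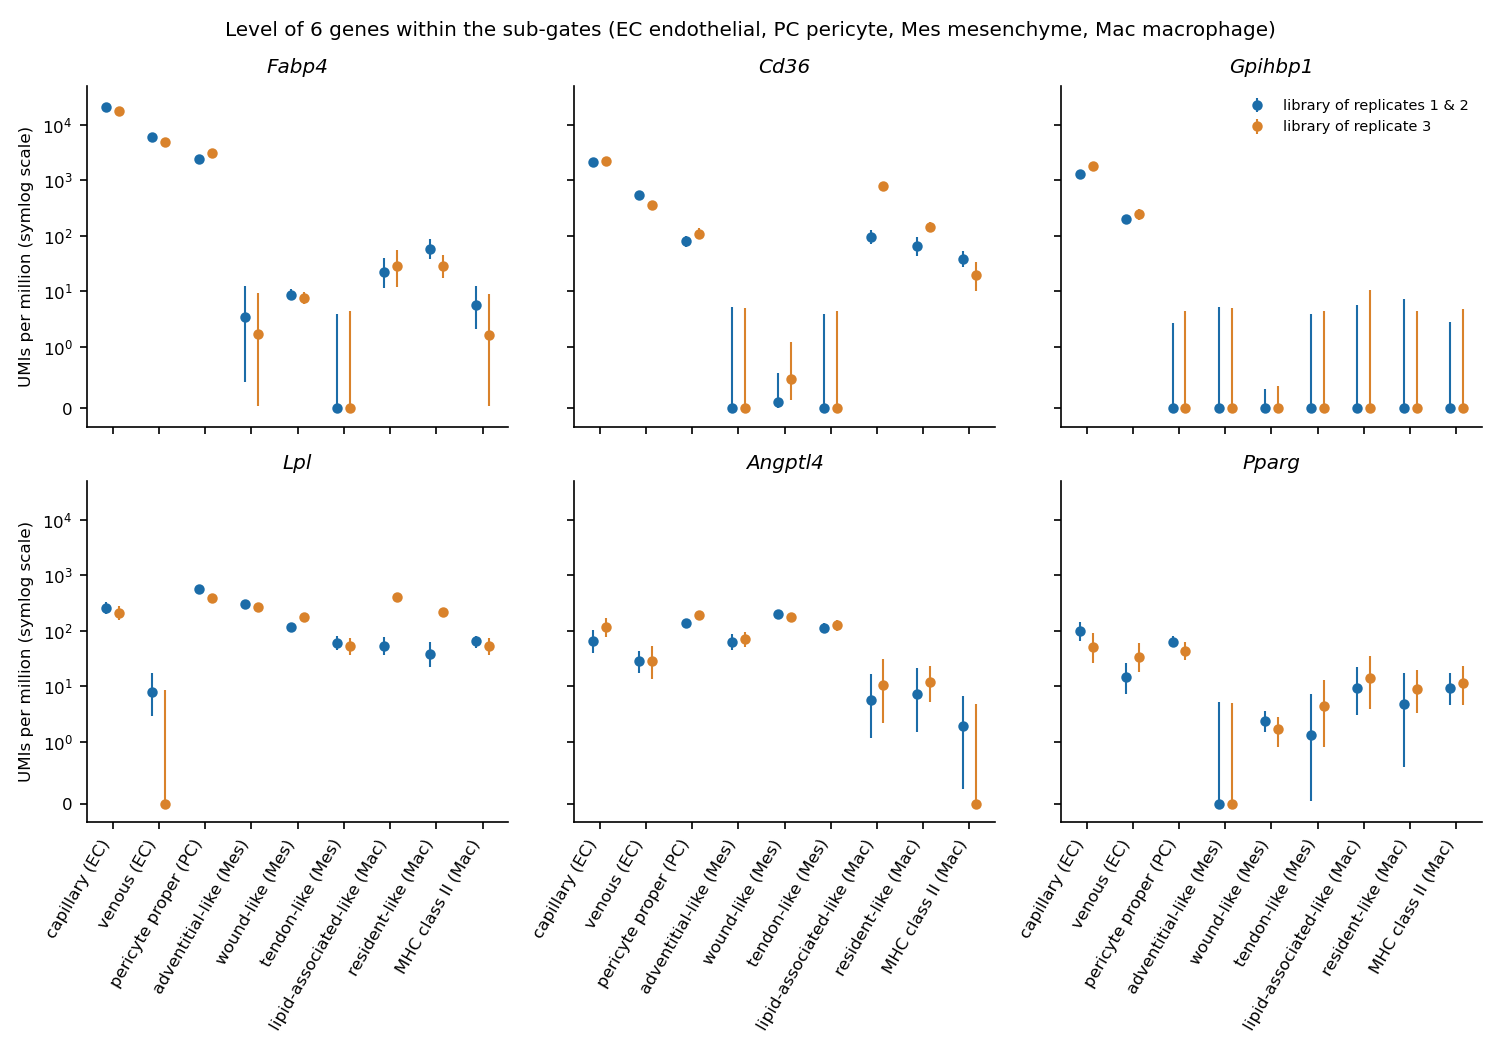
Levels of Fabp4, Cd36, Gpihbp1, Lpl, Angptl4 and Pparg in CPM (y axis, symlog scale) in 9 sub-gates (x axis), with a point per library and exact Poisson 95% intervals. Fabp4 ran from 20965 and 18065 in capillary cells to 0 in tendon-like mesenchyme, and Gpihbp1 was read in capillary and venous cells alone among these sub-gates.

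In mesenchyme, which includes the progenitors that form ectopic bone, the order of the members turned around: Angptl4 and Scd1 were higher and Fabp4, Cd36 and Pparg lower than in the other 3 gates. Of all genes tested, 28.6% were called higher and 17.4% lower in mesenchyme. Angptl4, the inhibitor of lipoprotein lipase, read 185 and 161 CPM in mesenchyme, 102 and 153 in pericytes, 31.6 and 52.8 in endothelial cells, and 4.80 and 6.78 in macrophages. Mesenchyme exceeded the other 3 gates by 2.69 (SE 0.18, adjusted p = 1.45e-08). Its neighbour in the order, the pericyte gate, was 0.74 lower on the log2 scale (SE 0.21, adjusted p = 0.0135), although the interval of replicate 3 in pericytes (129 to 180) overlapped that in mesenchyme (154 to 168).

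Angptl4 was the member most widely spread over mesenchymal cells. The median cell stood at 90.5 and 94.0 CPM, 45.9% and 44.5% of cells carried a UMI after thinning, and the 3 richest cells held 5.65% and 6.05% of UMIs. Scd1, the desaturase, read 27.4 and 27.2 CPM in mesenchyme against 8.38 and 11.5 in pericytes, 4.92 and 6.60 in endothelial cells and 4.80 and 3.65 in macrophages (2.32, SE 0.18, adjusted p = 1.20e-07). Keratinocytes, outside the comparison, stood higher still at 107 and 125 CPM. At own depth 51.1% and 52.3% of mesenchymal cells carried Scd1 but only 12% and 11.4% after thinning, since the median mesenchymal cell held 40998 and 44495 UMIs.

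Of the uptake genes, Fabp4 and Cd36 were close to absent from mesenchyme, and the receptor Pparg was low as well. Fabp4 lay 6.02 below the other 3 gates (SE 0.30, adjusted p = 6.19e-10), Cd36 8.74 below (SE 0.44, adjusted p = 5.95e-09) and Pparg 3.54 below (SE 0.35, adjusted p = 1.11e-06). Cd36 rested on 5 and 5 UMIs in all mesenchymal cells of a library. The 3 richest cells held 64.5% and 51.5% of mesenchymal Fabp4, and 9.89% and 10.2% of cells carried a Fabp4 UMI at own depth, or 2.63% and 3.68% after thinning. Lpl, at 106 and 157 CPM, did not differ beyond its spread from the log mean of the other 3 gates (0.02, SE 0.23, adjusted p = 0.973). In pairs it was below pericytes (adjusted p = 0.00194), above endothelial cells (adjusted p = 0.00352) and not called against macrophages (adjusted p = 0.881).

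Within mesenchyme, adventitial-like cells (30 and 24) carried the most Lpl, 300 and 273 CPM, against 116 and 181 in wound-like cells (225 and 173) and 61.7 and 53.1 in tendon-like cells (22 and 18). The adventitial-like level was called higher than the mean of the other sub-gates (1.65, SE 0.51, adjusted p = 0.0426), where 7.23% of genes were called higher and 3.88% lower. That call was lost under DESeq2 (adjusted p = 0.153) and without the replicate block (1.62, adjusted p = 0.0658). Angptl4 ran the other way, with 64.2 and 71.2 CPM in adventitial-like cells (−1.17, SE 0.23, adjusted p = 0.00202), 114 and 127 in tendon-like cells, and 201 and 177 in wound-like cells (1.07, adjusted p = 0.00393, where 1.67% of genes were called higher). Fabp4 was called lower in tendon-like cells (4.32% of genes called lower, adjusted p = 0.0393) and higher in wound-like cells (adjusted p = 0.00773), and both calls rest on 0 UMIs in the tendon-like cells of both libraries. The tendon-like call was lost under DESeq2 (adjusted p = 0.105), under the stricter gate (adjusted p = 0.0679) and without the 3 cells of each sum with the most member UMIs (adjusted p = 0.0625). Lpl in tendon-like cells was not called (−1.81, adjusted p = 0.0812), but was called lower under the stricter gate (−1.84, adjusted p = 0.0172), without those cells (−1.62, adjusted p = 0.0231) and with no low-count filter (−1.87, adjusted p = 9.88e-12).

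In macrophages, Cd36 was the only member called higher (2.12, SE 0.27, adjusted p = 2.87e-05), at 62.4 and 187 CPM, where 27.4% of all genes were called higher and 25.5% lower. Fabp4 was lower by 4.84 (SE 0.29, adjusted p = 3.91e-09), Angptl4 by 3.90 (SE 0.29, adjusted p = 3.91e-08) and Scd1 by 1.22 (SE 0.31, adjusted p = 0.00446). Lpl (−0.05, adjusted p = 0.912) and Pparg (−0.27, adjusted p = 0.572) did not differ beyond their spread from the log mean of the other 3 gates. In pairs, macrophage Pparg was below endothelial cells and pericytes (adjusted p = 0.0117 and 0.00186) and above mesenchyme (adjusted p = 0.000348). Macrophage Lpl was below pericytes (adjusted p = 0.00121), above endothelial cells (adjusted p = 0.00586) and not called against mesenchyme (adjusted p = 0.881). Fabp4 in macrophages, at 17.0 and 15.1 CPM, was higher than in mesenchyme (log2 difference of mesenchyme −0.89, adjusted p = 0.0290), and 8.73% and 10.2% of macrophages carried a UMI at own depth, or 4.86% and 5.36% after thinning.

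A few cells set the level of the macrophage uptake genes in replicate 3. There the richest macrophages held 126, 62 and 36 Cd36 UMIs, together 62.4% of the total, and without them Cd36 was 74.1 CPM in place of 187. In the other library it moved from 62.4 to 42.8. Lpl behaved alike, with 91, 69 and 21 UMIs in the top cells of replicate 3 (51.0% of the total), 185 CPM with them and 93.1 without, against 77.9 and 45.8 in the other library. With the 3 richest cells of every sum left out, macrophage Lpl was called lower than the other 3 gates (−0.65, adjusted p = 0.0355).

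Lipid-associated-like macrophages (34 and 17 cells, gated by at least 2 markers of the class) read 95.9 and 789 CPM of Cd36, against 65.7 and 143 in resident-like cells (44 and 43) and 38.9 and 19.5 in MHC class II cells (100 and 41). The lipid-associated-like level was called higher (2.74, SE 0.55, adjusted p = 0.0123, 2.31% of genes called higher), and without the 3 richest cells it was 35.5 and 207 CPM. The same cells were higher in Meox2 (7.34) and Cav1 (3.64), both also read in endothelial cells (Meox2 131 and 162 CPM, Cav1 903 and 1011 CPM), and the part of other cells' RNA in the Cd36 level was not tested. MHC class II macrophages were lower in Cd36 (−2.55, adjusted p = 0.0284), Fabp4 (−2.85, adjusted p = 0.00154) and Angptl4 (−2.68, adjusted p = 0.0456), where 3.91% of genes were called lower. MHC class II Angptl4 was 1.90 and 0 CPM, and DESeq2 did not call it (adjusted p = 0.106). Lpl in lipid-associated-like cells, at 54.5 and 408 CPM, was not called (1.19, adjusted p = 0.345), and 3 cells held 93.1% of it in replicate 3. Fabp4 was called higher in resident-like cells (58.4 and 28.2 CPM, 1.98, adjusted p = 0.00380, 4.67% of genes called higher), a call that was lost without the 3 richest cells (0.82, adjusted p = 0.333).

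The gates were also compared in pairs. Of the 7 members tested, 6 were called between endothelial cells and macrophages (42.6% of all genes called in either direction), 7 between endothelial cells and mesenchyme (41.3%), 5 between endothelial cells and pericytes (29.1%), 6 between pericytes and mesenchyme (32.2%), 5 between pericytes and macrophages (48.7%) and 5 between mesenchyme and macrophages (59.4%). Scd1 differed in 3 of these 6 pairs: endothelial cells did not differ in it beyond their spread from pericytes (adjusted p = 0.218) or macrophages (adjusted p = 0.929), nor pericytes from macrophages (adjusted p = 0.0714).

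The genes of mature fat cells were nearly absent from the cell libraries. Plin1 was read from 10 and 2 UMIs over all kept cells, each in a different cell, 5 and 1 of them in mesenchyme and 3 and 1 in pericytes. Adipoq was read from 1 and 0 UMIs of kept cells, the 1 in an endothelial cell, and Cidec from 0 and 1, again endothelial. The filters on cells left out 1 barcode of replicate 3 that held 18 Adipoq UMIs. Fabp4, Cd36, Lpl and Pparg were thus read in these libraries with no adipocyte gate and next to no Adipoq, Plin1 or Cidec.

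Other lipid genes were taken from 6 lists of 78 genes in all, of which 68 passed the filter. No test of a list was made, and each count stands beside the share of all genes called. In endothelial cells 15 were called higher (22.1%, against 17.0% of all genes) and 19 lower (27.9%, against 15.9%). Those higher included Tcf15, a transcription factor of capillary endothelium that with Meox2 controls fatty acid transport genes (87.1 and 106 CPM, log2 5.38), the lipoprotein receptor Scarb1 (585 and 560 CPM, 5.04), the monoglyceride lipase Mgll (332 and 353 CPM, 4.64) and the hormone-sensitive lipase Lipe (41.4 and 38.3 CPM, 2.92). Thrsp (8.28) and Zfp423 (3.41) were also higher. The receptor Lrp1 (−6.38), the desaturase Fads2 (−1.91), the regulator Ebf2 (−3.60) and Fabp3, with 0 UMIs in endothelial cells, were lower. Tcf15 (3.11), Mgll (1.67) and Thrsp (5.67) were the only 3 of 59 list genes tested that were called between capillary and venous cells (5.08% higher, against 0.790% of all genes).

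In pericytes 18 list genes were higher (26.5%, against 17.7% of all genes) and 12 lower (17.6%, against 13.1%). Of the 8 adipogenic regulators tested, 5 were higher and 0 lower, with a median log2 difference of 1.01 against −0.04 over all genes, and led by Ebf2 (120 and 117 CPM, 4.38), a factor of brown and beige fat precursors, and Nr1h3 (1.52). Tcf15 (31.1 and 27.2 CPM, 3.16), G0s2, an inhibitor of triglyceride lipolysis (2.80), Angptl2 (1.90), Fads2 (1.75) and the droplet protein Plin4 (21 and 7 UMIs, 5.90) were higher too. Apoe (−2.74) and the transporter Slc27a3 (0 and 1 UMIs) were lower.

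Mesenchyme had 22 list genes higher (32.4%, against 28.6% of all genes) and 15 lower (22.1%, against 17.4%). Of the lipogenesis genes 9 of 15 were higher and 1 lower with a median of 1.08 against 0.09 over all genes, among them the malic enzyme Me1 (41.7 and 36.4 CPM, 2.92) and Fads2 (2.33). Angptl2 (482 and 482 CPM, 4.94), Slc27a3 (4.42), Lrp1 (3.50) and Ebf2 (2.19) were higher, and the lipases Lipe (−3.11) and Pnpla2 (−2.72), Nr1h3 (−3.40) and Tcf15 (−4.05) lower. Adventitial-like mesenchyme had 14 of 59 list genes higher (23.7%, against 7.23% of all genes), among them Ebf2 (2.73), Apoe (2.25) and Cebpb (1.61), and 3 lower (5.08%, against 3.88%), led by Fabp5 (−2.77).

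In macrophages 25 list genes were higher (36.8%, against 27.4% of all genes) and 19 lower (27.9%, against 25.5%). Apoe, the main apolipoprotein of macrophages, reached 10659 and 12266 CPM (6.08), and Apoc1 (5.62), the droplet protein Plin2 (432 and 615 CPM, 3.67) and Cebpa (3.71) were higher. Cav1 (−5.23), Meox2 (−4.96), Me1 (−3.32) and G0s2 (−3.65) were lower. Lipid-associated-like macrophages were higher in 6 of 59 list genes (10.2%, against 2.31% of all genes) and lower in 0, including the lysosomal lipase Lipa (1.23) and the droplet proteins Plin2 (1.11) and Plin3 (1.16).

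Likeness of pattern was measured as Pearson's r of log2(CPM + 1) over 12 sums of cells among 6366 genes, a description over sums that share libraries. Fabp4 ran closest to Flt1 (0.988), Frmd4a (0.979), Tcf15 (0.975), Nts (0.968) and Lims2 (0.965). Cd36 ran closest to Parvb (0.957), Crk (0.956), BC028528 (0.952), Ppp1r15a (0.942) and Sbno2 (0.938), and Lpl to Cxcl1 (0.986), Vapb (0.972), Ptms (0.972), Cdk14 (0.969) and Cd302 (0.962).

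In the tissue sections the members were read through probes in spots that each cover several cells, so fewer cells of a type and less RNA per cell cannot be told apart there. Fabp4 was the one member in wide reach, with 2841 and 1507 UMIs in 36.6% and 25.1% of spots. Cd36 had 73 and 89 UMIs, Lpl 46 and 65, Angptl4 25 and 37, Gpihbp1 51 and 55, and Pparg 1 and 1 in the whole section. The mature fat cell genes, nearly absent from the dissociated cells, were present here: Plin1 with 83 and 50 UMIs, Adipoq with 83 and 47, and Cidec with 11 and 13. Scd1 was read from 257 and 143 UMIs in 6.19% and 3.97% of spots.

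Fabp4 was gathered in patches. The 5% of spots richest in it held 43.1% and 47.1% of its UMIs, and the richest single spot held 25 and 15. The authors' deposited Moran's I, a score of how alike neighbouring spots are, was 0.244 and 0.255 for Fabp4, rank 11 of 19132 genes in A1 and 31 of 19222 in B1, where the median gene scored −0.000555 and 0.00247. Adipoq scored 0.0423 (rank 283) and 0.00902 (rank 5117), Scd1 0.0306 (rank 480) and 0.0453 (rank 483), and Cd36 0.0167 (rank 1185) and 0.0133 (rank 3413). Plin1 scored 0.00864 (rank 2747) and 0.00525 (rank 7309), and Cidec 5.64e-06 (rank 8388) and 0.0164 (rank 2561). Fabp4 and Scd1 thus ranked ahead of Cd36 in both sections, while Adipoq did so in A1 alone, Cidec in B1 alone and Plin1 in neither.

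**Figure D3:**
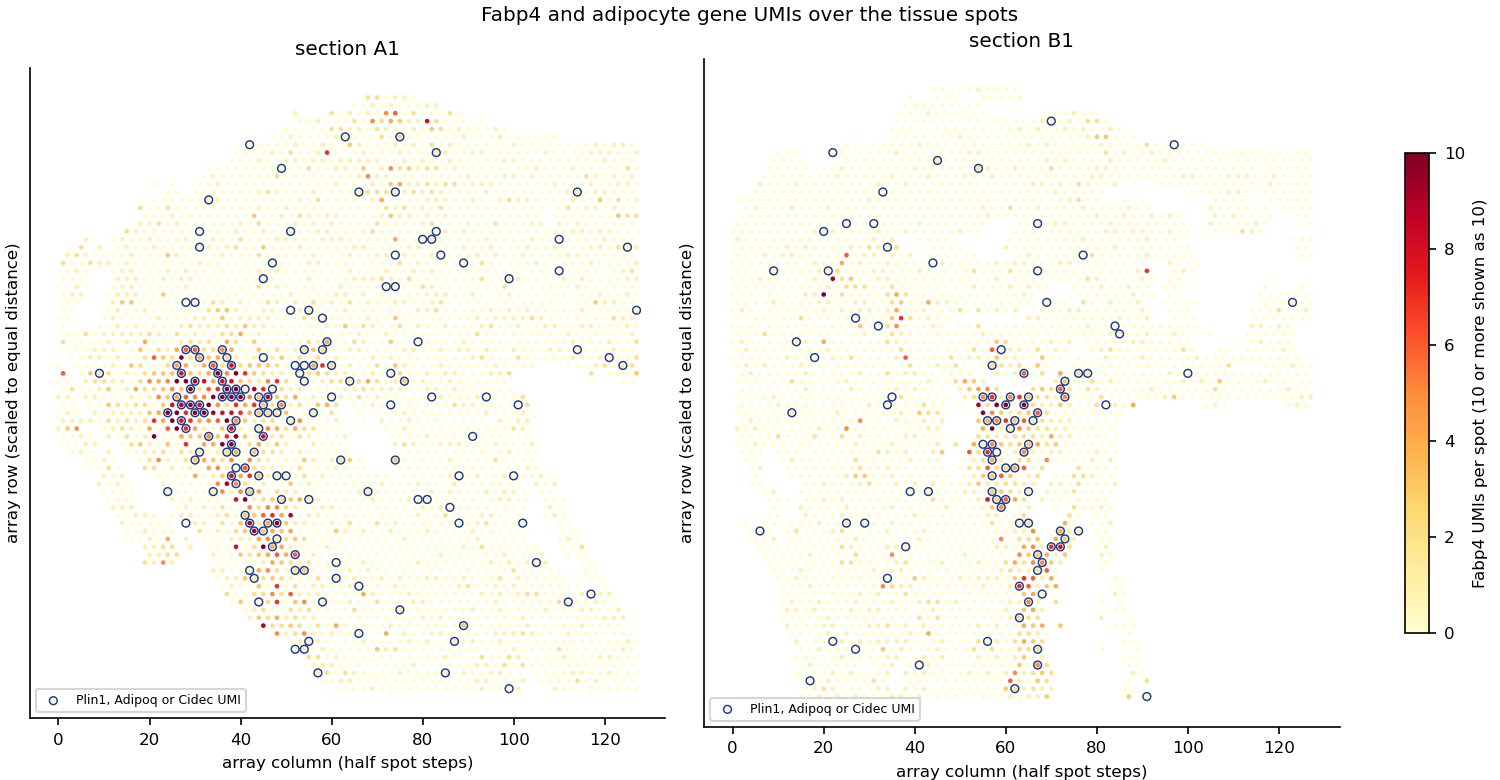
Fabp4 UMIs per spot (color scale, 10 or more shown as 10) over the spots of sections A1 and B1, laid out by array column and row (axes, in steps of the slide array), with circles around spots that hold a Plin1, Adipoq or Cidec UMI. The highest spot held 25 and 15 Fabp4 UMIs. Circled spots read 3955 and 2369 CPM of Fabp4, against 606 and 351 in spots 5 or more steps away from them.

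Spots around the fat cell genes were richest in Fabp4. Spots with a Plin1, Adipoq or Cidec UMI (159 and 94 spots) read 3955 and 2369 CPM of Fabp4. One step away the level was 2182 and 1428, at 2 steps 1068 and 689, at 3 to 4 steps 853 and 419, and at 5 or more steps 606 and 351. Each ring lay below the one before it in both sections, and the share of spots with a Fabp4 UMI went from 62.3% to 31.1% and from 58.5% to 16.7% between the first ring and the last. Depth moved with the rings, with median UMIs of 720 and 773 in the first and 401 and 445 in the last, which CPM takes into account and the shares do not. No test was made across spots, which are not replicates.

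Scd1 and Lipe followed the same rings more loosely. Scd1 read 181 and 243 CPM in the first ring and 64.8 and 43.0 in the last, and Lipe 271 and 243 against 80.1 and 84.7. Gpihbp1 differed in order between the sections: it read 8.22 CPM in the first ring of A1 (1 UMI) and 116 in that of B1 (10 UMIs), against 22.9 and 13.9 in the last ring. Pecam1, an endothelial adhesion molecule, read 65.8 and 57.8 CPM in the first ring, from only 8 and 5 UMIs, and 40.0 and 33.3 in the last. The first ring was higher in both sections, but the levels did not fall ring by ring in either.

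**Figure D4:**
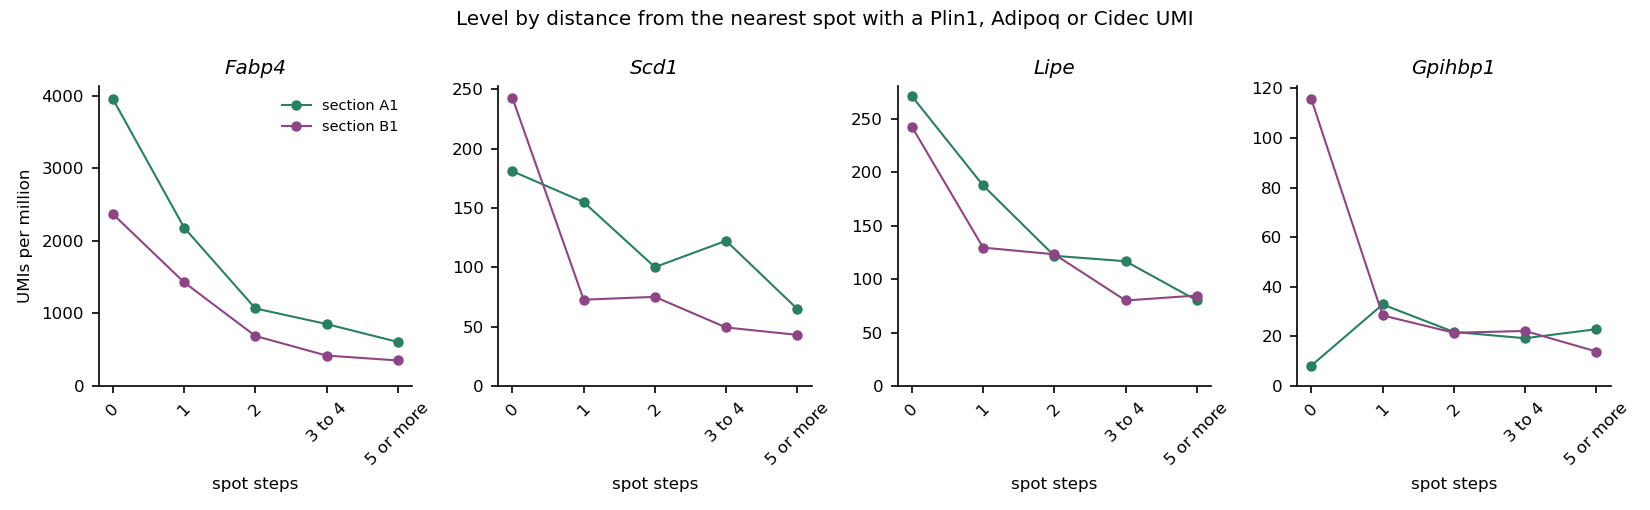
Levels of Fabp4, Scd1, Lipe and Gpihbp1 in CPM (y axes, each from 0) by distance in spot steps from the nearest spot with a Plin1, Adipoq or Cidec UMI (x axis), with a line for each section. Fabp4 ran from 3955 and 2369 to 606 and 351, while Gpihbp1 in the first ring rests on 1 UMI in A1 and 10 in B1.

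Within single spots, Fabp4 was found in 76.4% and 54.3% of spots with Adipoq against 35.7% and 24.7% of the rest, and in 56.2% and 66.7% of spots with Plin1 against 36.1% and 24.5%. The spots with Adipoq were also deeper, with medians of 818.5 and 782.5 UMIs against 449 and 513. Adipoq and Plin1 shared a spot 4 times in each section. No correlation between members over all spots exceeded 0.136 in either section.

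Spots were next classed by tissue markers and summed per section, and classes of at least 20 spots in each section were compared by the same edgeR test over 2921 genes. Fabp4 and Scd1 alone of the members could be tested. Fabp4 was lower in bone spots (34 and 35 spots, 8 and 6 UMIs, 258 and 186 CPM) than in the mean of the other classes, by 1.34 on the log2 scale (SE 0.42, adjusted p = 0.0375), where 2.33% of genes were called lower. That call was lost under DESeq2 (adjusted p = 0.167), plain totals (−1.15, adjusted p = 0.0911), without the replicate block (−1.33, adjusted p = 0.0884), with no low-count filter (−1.51, adjusted p = 0.137) and in spots with at least 500 UMIs (−1.23, adjusted p = 0.0913).

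Neither gene was called in the other 5 classes. Fabp4 differed by −0.62 (SE 0.30, adjusted p = 0.283) in cartilage, where the stricter class rule made the call (−1.17, adjusted p = 0.0111), 0.48 (adjusted p = 0.183) in epidermis, 0.63 (adjusted p = 0.148) in inflammatory myeloid spots, 0.51 (adjusted p = 0.360) in skeletal muscle and 0.34 (adjusted p = 0.544) in wound mesenchyme. Epidermis was called higher with no low-count filter (0.89, adjusted p = 0.0451) and in spots with at least 500 UMIs (0.83, adjusted p = 0.0141), and stood at −0.43 (adjusted p = 0.124) under the looser class rule given next. Over all genes, 4.01%, 18.9%, 29.1%, 5.27% and 7.43% were called in these classes in either direction. Most spots had no class, 2931 and 2565, and these held 2436 and 1185 of the Fabp4 UMIs.

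A looser class rule brought adipocyte, mural, vessel, tendon and macrophage spots into reach, with 2244 genes tested. Adipocyte spots (30 and 26) read 3811 and 1358 CPM of Fabp4, higher than the other classes by 1.69 (SE 0.24, adjusted p = 5.44e-07), where 0.357% of genes were called higher. They also read 193 and 503 CPM of Scd1 from 4 and 10 UMIs (2.49, SE 0.64, adjusted p = 0.0495). The class rested mainly on Aoc3, which made up 81.5% and 74.9% of adipocyte marker UMIs and was also read from 1152 and 796 UMIs in the cell libraries, where no adipocyte was gated.

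Mural spots (57 and 45) read 2079 and 1384 CPM of Fabp4 and were higher as well (1.17, SE 0.21, adjusted p = 0.000102, 1.02% of genes called higher). Vessel spots (30 and 36), at 2371 and 840 CPM, were not called (0.99, SE 0.26, adjusted p = 0.0656). Fabp4 was lower in cartilage (378 and 319 CPM, −1.29, adjusted p = 0.000168, 0.490% of genes called lower), bone (491 and 251 CPM, −1.14, adjusted p = 0.0164, 1.07%) and tendon spots (328 and 541 CPM, −0.99, adjusted p = 0.0409, 0.446%). In macrophage spots, at 1278 and 1423 CPM, it was not called (0.77, adjusted p = 0.308).

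Of the 76 other lipid genes listed in the sections, 24 could be tested in spots. Inflammatory myeloid spots were higher in 7 (29.2%, against 21.3% of all genes) and lower in 1 (4.17%, against 7.84%), led by Cebpb (5.86), G0s2 (5.12) and Plin2 (3.91). Over all genes the 622 higher and 229 lower calls of these spots became 468 and 1016 under plain totals. Epidermis was higher in Fabp5 (2.70), the skin paralog of Fabp4, and skeletal muscle in Car3 (3.25), and bone spots were lower in Fabp5 (−1.77) and Cebpb (−2.23). Cartilage had 0 higher (0.00%, against 2.43% of all genes) and 2 lower (8.33%, against 1.57%). Wound mesenchyme had 1 higher (4.17%, against 4.31%) and 2 lower (8.33%, against 3.12%). Over the sums of spots Scd1 ran closest to Wnt5b (0.960), Fzd1 (0.959), Ttc28 (0.958), BC034090 (0.958) and Akna (0.955) among 7585 genes, from 65 Scd1 UMIs, and Adipoq, with 6 UMIs in those sums, was too sparse for the same measure.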

How the data were processed

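Single-cell libraries (10x 3' chemistry) and Visium FFPE sections were analysed from the authors' deposited UMI counts per barcode, made with Cell Ranger 5.0.1 and, per the file headers, Space Ranger 2.0.1, both on mm10. Moran's I is a score deposited by the authors. The probe panel of the sections lists fewer genes than the cell libraries. The members and lists were chosen with earlier results of these data known.

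Barcodes counted as cells had no more than 20% of UMIs from mitochondria, 5% or more from ribosomal protein genes, 200 or more genes, and totals up to the 99th percentile. A cell entered a gate with at least 3 markers of the class and 2 more than of any other, which stood in for a doublet caller, and a sub-gate with at least 2 markers. A spot was classed where its marker UMIs had a Poisson tail under 0.001 (looser 0.01). Classes needed 20 cells or spots per sample and sub-gates 15.

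Counts were summed per sample and class and tested with edgeR 4.0.16 (R 4.3.3, TMM, quasi-likelihood F test, Benjamini-Hochberg over all genes tested, threshold 0.05), blocking on the sample, since classes of a sample share their source. Levels are given as CPM of each sum, with exact 95% Poisson intervals for counting error alone. A sum of 0 UMIs was read as allowing 3 counts. Shares were repeated after thinning to 5000 UMIs, with cells under that depth left out. Alternatives were DESeq2 1.42.0, plain totals, no low-count filter, no block, stricter and looser gates or classes, no ribosomal limit, all other gated classes as the reference, deeper spots, and each library or section alone. Sums without their 3 richest cells were added after seeing the data. The named genes were the 10 members, and per list and comparison up to 2 genes with the largest change past the threshold and the same direction in both samples. A gene's closest patterns were the 5 highest r among genes with a mean of at least 20 CPM. Scripts were tested on simulated data. Python 3.11.15, numpy 2.4.6, pandas 2.3.3, scipy 1.17.1 and matplotlib 3.10.9 were used. Gene positions came from the authors' build, and promoters from RefSeq GRCm38.p6.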

Additional observations from a re-analysis of the deposited data

How the results depend on the processing

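Calls among gated cells kept within narrow counts, 5 to 7 endothelial, 4 or 5 pericyte, 4 or 5 mesenchymal and 4 or 5 macrophage members over all alternatives. In the sub-gates the 14 calls over 7 comparisons became 8 under the stricter gate, where capillary, lipid-associated-like and resident-like cells were too few to be fitted and the other 4 comparisons also held 8 calls before, and 10 to 19 under the other alternatives. In spots the 1 call became 0 under DESeq2, under plain totals and with no replicate block. Under the looser spot class it became 2 in the classes of the main fit. The classes that this rule added held further calls, Fabp4 and Scd1 in adipocyte spots and Fabp4 in mural and tendon spots. With no low-count filter and in spots with at least 500 UMIs the count stayed 1, but Fabp4 in bone was lost (−1.51 and −1.23) and Fabp4 in epidermis gained (0.89 and 0.83). Without the replicate block, 75 of 78 log2 differences kept direction and side of the threshold, and the other 3 were pericyte Cd36 (1.01, adjusted p = 0.0855), adventitial-like Lpl (1.62, adjusted p = 0.0658) and Fabp4 in bone spots (−1.33, adjusted p = 0.0884). That fit changed no other member call.

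Among called values, direction turned for endothelial Lpl against all other gated classes (1.84, adjusted p = 0.0519), which adds classes with almost no Lpl, and for capillary Angptl4 without the 3 richest cells (−3.03, adjusted p = 0.166). Uncalled values changed sign too, among them endothelial Angptl4 (−0.50 to 0.83) and macrophage Lpl (−0.05 to 3.41) under the wider reference, and Fabp4 in epidermis (0.48 to −0.43), skeletal muscle (0.51 to −0.44) and wound mesenchyme (0.34 to −0.40) under the looser spot class. With the wider reference endothelial Angptl4 (adjusted p = 0.0328), mesenchymal Lpl (3.47) and macrophage Lpl became called, and mesenchymal Pparg (−1.85, adjusted p = 0.0586), macrophage Scd1 (−1.15, adjusted p = 0.0656) and endothelial Scd1 (−1.03, adjusted p = 0.151) were lost. DESeq2 kept 72 of 78 log2 differences and the looser gate 66 of 66.

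Plain totals moved the median of all genes by 0.19 in endothelial cells, 0.15 in pericytes, −0.16 in mesenchyme, −0.17 in macrophages, −0.81 in inflammatory myeloid spots and 0.16 to 0.22 in bone, cartilage, skeletal muscle and wound mesenchyme spots, and ended 2 member calls (endothelial Scd1 and Fabp4 in bone). The split of higher and lower calls went from 2087 and 1956 to 2748 and 1466 in endothelial cells, from 2172 and 1606 to 2663 and 1198 in pericytes, from 3523 and 2136 to 2843 and 2879 in mesenchyme, from 3373 and 3137 to 2863 and 3826 in macrophages, from 396 and 381 to 268 and 445 in MHC class II macrophages, from 622 and 229 to 468 and 1016 in inflammatory myeloid spots, from 79 and 68 to 114 and 38 in bone, from 71 and 46 to 164 and 41 in cartilage, from 124 and 30 to 217 and 16 in skeletal muscle and from 126 and 91 to 238 and 66 in wound mesenchyme spots. With a sample alone there is no test, and ratios within the sample moved by more than the SD between samples in 28 of 66 comparisons without replicates 1 & 2, 21 of 66 without replicate 3, 5 of 12 without A1 and 3 of 12 without B1. The sections were shallow, with medians of 454 and 516 UMIs per spot, and 2 of 10 members could be tested there. In cells Plin1, Adipoq and Cidec were read from 13, 19 and 2 UMIs over all barcodes of both libraries, and the cause of these low counts was not tested.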
